A study of Mustela putorius furo and Mus musculus with 4 samples.

Results

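The expression of 10 genes of the complement system, its components and its receptors, was examined in cultured ferret and mouse astrocytes. The genes were C1qa, C1qb, C1qc, C2, C3, C3ar1, C5ar1, Cfb, Cfp and Serping1, chosen by name and matched between the species by gene symbol without regard to case. All 10 were listed in the mouse libraries and 7 in the ferret libraries, out of 13373 symbols that the species shared. C1qa, C2 and Cfb had no row in the ferret libraries under these symbols, so they have mouse values alone.

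Complement is a cascade of secreted proteins that tags surfaces and recruits phagocytes. The classical pathway starts when C1q, built of A, B and C chains, binds a surface, and C2 takes part in the enzyme that then cleaves C3, the protein on which all routes converge. The alternative pathway amplifies C3 cleavage through factor B (Cfb) and is stabilised by properdin (Cfp), while C1 inhibitor (Serping1) holds the first proteases in check. The small fragments released from C3 and C5 signal through C3ar1 and C5ar1. In the brain, microglia are the best known source of C1q, astrocytes are a known source of C3, and C1q and C3 are known for tagging synapses that are later removed.

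The study asked how astrocytes of the ferret, a carnivore with a folded cortex, differ from those of the mouse. Primary astrocytes came from the cerebral cortex of normally pigmented sable ferrets at postnatal day 1 (P1) and of wild-type ICR mice at P1 to P3. Cells of both species grew as a mixed glial culture for 14 days in medium with 10% fetal bovine serum. They were then shaken to shed loosely attached cells and replated, at first again in medium with 10% serum. After that the cells spent 4 days without serum, with heparin-binding EGF-like growth factor in the medium, before polyA RNA was sequenced. There were 2 libraries of each species. Cells of a single ferret pup were spread over several flasks, whereas cells of several mouse pups shared a flask. The sources do not state whether the duplicate libraries came from separate cultures, so the p-values measure the spread between these libraries, which may be technical. Species, gene annotation, gene-model length and culture cannot be told apart in this design, and in bulk RNA fewer cells of a type and less RNA per cell cannot be told apart either.

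Levels are FPKM, fragments mapped to a gene divided by the length of its exons and by the library's mapped fragments. The duplicates lay close together, with a median absolute log2 difference of 0.081 between the ferret libraries and 0.065 between the mouse libraries. Known astrocyte markers were present in both species, with none of 11 listed at 0 and a sum of 4704 to 4898 FPKM in ferret and 10273 to 11054 FPKM in mouse. The values used here are FPKM without counts, so no absolute depth is given. From the steps between low values, the relative depth of replicate 1 to replicate 2 was 1.17 in ferret and 0.832 in mouse.

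The C1q genes carried the highest levels of the 10 genes in mouse, and their chains share a repeating collagen-like stretch that the other 7 genes lack. These stretches are shown because they are what makes the C1q chains a family of their own among the genes described. In the reading frame, a glycine codon, printed in capitals, recurs after each pair of other codons, in coding sequence taken from the mouse reference (GRCm38, GENCODE vM21), 5′ to 3′ on the minus strand.
C1qa: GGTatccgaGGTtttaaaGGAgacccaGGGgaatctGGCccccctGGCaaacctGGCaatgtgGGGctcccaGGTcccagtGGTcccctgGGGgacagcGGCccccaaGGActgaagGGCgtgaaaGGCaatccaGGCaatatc
C1qb: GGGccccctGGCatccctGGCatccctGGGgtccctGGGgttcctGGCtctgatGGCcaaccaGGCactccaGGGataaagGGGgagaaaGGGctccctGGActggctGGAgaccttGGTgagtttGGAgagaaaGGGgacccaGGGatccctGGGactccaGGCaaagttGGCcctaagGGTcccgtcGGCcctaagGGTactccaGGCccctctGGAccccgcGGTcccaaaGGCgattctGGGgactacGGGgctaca
C1qc: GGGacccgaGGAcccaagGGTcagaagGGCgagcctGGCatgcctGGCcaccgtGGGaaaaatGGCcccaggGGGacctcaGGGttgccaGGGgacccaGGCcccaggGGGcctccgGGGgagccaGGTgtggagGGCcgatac

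The C1qa stretch held 16 glycine codons in a row at this spacing and covered codons 62 to 109 of 245, at chr4:136896565-136896708. The C1qc stretch also held 16, over codons 68 to 115 of 246, at chr4:136890439-136890582. C1qb had the longest unbroken run of the 3, with 29 over codons 31 to 117 of 253. That run is joined across an intron between chr4:136880700 and chr4:136882217. The longest run in each of the other 7 genes was 1 or 2. Among 21739 mouse coding genes, 0.327% held a run of at least 16 and 0.239% a run of at least 29. The search used the letters GGN in frame on the coding strand, and a run describes the sequence only. It kept the longest unbroken run of each gene and ended at any break in the spacing. The stretches shown can therefore be shorter than the whole collagen-like region, and their lengths do not compare those regions.

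The 3 C1q genes lie side by side on the minus strand of mouse chromosome 4 within 18675 bases. C1qb spans chr4:136880129-136886187, C1qc chr4:136889804-136893065 and C1qa chr4:136895917-136898803, each with 3 exonic regions, and the gaps between them are 3616 and 2851 bases. C2 (chr17:34862604-34898265) and Cfb (chr17:34856374-34862518) are also neighbours, 85 bases apart on the minus strand. The remaining genes lie apart from each other, C3 at chr17:57203970-57228136, Serping1 at chr2:84765387-84775444, Cfp at chrX:20925454-20931555, C5ar1 at chr7:16246743-16259540 and C3ar1 at chr6:122847138-122856161, all of them on the minus strand.

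All 7 complement genes with a value in both species were lower in ferret astrocytes, with log2 differences (ferret minus mouse) from -6.26 to -2.51. The largest differences were those of C1qb, C1qc and C3, and the smallest that of Serping1. The paper had already listed C1qb and C3 among the top genes of mouse astrocytes not found in ferret astrocytes, from the same FPKM. The test was limma on log2(FPKM + 1) over 10204 genes with a mean of at least 1 FPKM in a species, with Benjamini-Hochberg adjustment, and a gene was called when its adjusted p was under 0.05 and its log2 difference beyond 1 in either direction. By this rule 7 of 7 genes were called lower and 0 higher in limma, also at an unadjusted p under 0.05, against a background of 30.1% of all genes called lower and 13.1% called higher. Both ferret libraries were below both mouse libraries for each of the 7 genes, as they were for 59% of all genes, while both were above for 35.1%. C1qb, C3, Cfp, C5ar1 and C3ar1 entered the fit only through their mouse level and so had to differ, while C1qc, at the minimum, and Serping1 passed in ferret as well. The count is therefore no support for a difference of the complement genes as a group. The largest difference between duplicates of any of the 7 genes was 0.33 on the log2 scale, against a smallest species difference of 2.51. An exact permutation test of a single gene with 2 libraries against 2 cannot give a p below 0.333, so the calls rest on the spread pooled over all genes.

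**Figure D1:**
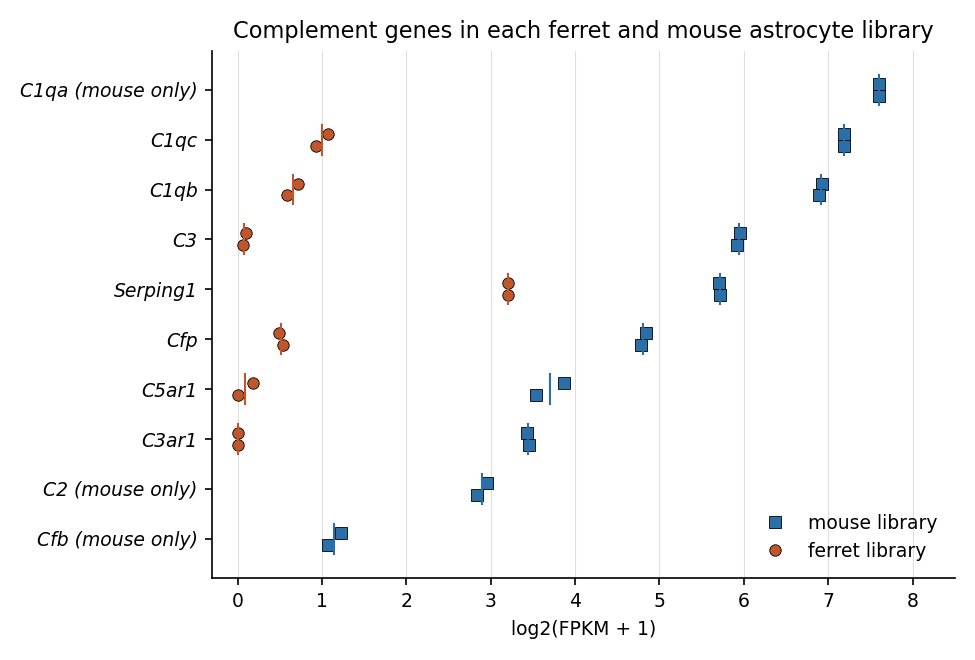
Level of each complement gene in each library on the horizontal axis, as log2(FPKM + 1), with squares for mouse libraries, circles for ferret libraries and a bar at the mean of the log2 values of a species (n = 2). Both ferret circles lie left of both mouse squares for all 7 genes with ferret values, and Serping1 is the gene with the highest ferret level.

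C1qa, which encodes the A chain of C1q, had the highest level of the 10 genes in mouse. It was at 193.1 and 192.8 FPKM in the 2 mouse libraries (192.9 ± 0.231, SD, n = 2), rank 373 of 55139 mouse symbols. No ferret value exists for it here, so the A chain could not be compared.

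C1qc, the C chain gene, was at 144.7 and 144.9 FPKM in mouse (144.8 ± 0.137, SD, n = 2) and at 1.10 and 0.904 FPKM in ferret (1.00 ± 0.140). Both ferret libraries were far below both mouse libraries. The log2 difference, ferret minus mouse, was -6.19 with an SE of 0.070 and a 95% interval from -6.35 to -6.03 (adjusted p = 6.05e-12, limma). In linear terms the mouse mean was 144 times the ferret mean. It held place 16 among the 10204 genes when these were ordered from the most negative difference.

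C1qb, the B chain gene, was at 120.4 and 118.0 FPKM in mouse (119 ± 1.70, SD, n = 2) and at 0.650 and 0.496 FPKM in ferret (0.573 ± 0.109). The species did not overlap. Its log2 difference of -6.26 (SE 0.072, 95% interval -6.42 to -6.10, adjusted p = 6.65e-12, limma) stood 13th from the most negative of all genes in the fit. It was more negative than that of C3 as deposited but not with a pseudocount of 0.1 (-7.48 against -8.58) or after rescaling to 1000000 (-6.83 against -7.31). The intervals of C1qb and C1qc overlapped.

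A C1q molecule holds all 3 chains, and the ratios between their genes were close in the duplicates of a species. In mouse C1qa was 1.60 and 1.63 times C1qb in the 2 libraries, and C1qc was 1.20 and 1.23 times C1qb. In ferret C1qc was 1.69 and 1.82 times C1qb, a ratio of values near or under 1 FPKM. Summed over the 3 chains, mouse C1q reached 458 and 456 FPKM. The B and C chains alone gave 265 and 263 FPKM in mouse and 1.75 and 1.40 FPKM in ferret.

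C2, which supplies a protease of the classical pathway, was at 6.74 and 6.16 FPKM in mouse (6.45 ± 0.410, SD, n = 2). Cfb, its counterpart in the alternative pathway, was the lowest of the 10 genes in mouse at 1.33 and 1.10 FPKM (1.22 ± 0.161). Neither had a ferret row. Both mouse values are uncertain because a gene model on the same strand, Gm20547, overlaps C2 by 19439 bases and Cfb by 6107 bases, and fragments shared between them could be assigned to either. Gm20547 itself was listed at 6.68e-40 and 5.30e-37 FPKM, values that amount to none. The RefSeq annotation of another ferret assembly lists C1QA, C2 and CFB as protein-coding genes. That annotation has no row under C1QB or CFP, which do have ferret values here.

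Serping1 encodes C1 inhibitor, a serpin that blocks C1r, C1s and the lectin pathway proteases. It was at 51.3 and 51.6 FPKM in mouse (51.5 ± 0.233, SD, n = 2) and at 8.22 and 8.25 FPKM in ferret (8.24 ± 0.0238). Both species were well above the minimum, and the ferret libraries were lower without overlap. The log2 difference was -2.51 (SE 0.060, 95% interval -2.64 to -2.37, adjusted p = 2.15e-10, limma), and the mouse mean was 6.25 times the ferret mean. Of the 7 genes it was the only one above 2 FPKM in ferret, and it stood 637th from the most negative difference of all genes.

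C3, the central component, was at 61.3 and 59.5 FPKM in mouse (60.4 ± 1.25, SD, n = 2) and at 0.0717 and 0.0462 FPKM in ferret (0.0590 ± 0.0180). Both mouse libraries placed it among the well expressed genes, at rank 1498 of all mouse symbols by their mean, and both ferret libraries were close to 0. The log2 difference was -5.86 (SE 0.070, 95% interval -6.02 to -5.70, adjusted p = 6.85e-12, limma), place 22 of all genes. The pseudocount of 1 compresses this value, since the ratio of the means was 1024 and the log2 difference became -8.58 with a pseudocount of 0.1.

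Cfp, the gene of properdin, was at 27.6 and 26.5 FPKM in mouse (27.1 ± 0.791, SD, n = 2) and at 0.404 and 0.456 FPKM in ferret (0.430 ± 0.0367). The ferret libraries were lower without overlap. Its log2 difference was -4.29 (SE 0.073, 95% interval -4.46 to -4.13, adjusted p = 3.68e-11, limma), and the mouse mean was 62.9 times the ferret mean. As deposited this was the middle value of the 7 genes, a place that depends on the pseudocount. With a pseudocount of 0.1 Cfp, at -5.68, was less negative than C5ar1 (-6.32) and C3ar1 (-6.64).

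The receptors were at or close to 0 in ferret. C5ar1, the receptor of the C5 fragment C5a, was at 13.6 and 10.7 FPKM in mouse (12.1 ± 2.11, SD, n = 2), the largest spread between duplicates among these genes, and at 0.132 FPKM in 1 ferret library while the other listed it at 0. C3ar1, the receptor of the C3 fragment C3a, was at 9.76 and 9.94 FPKM in mouse (9.85 ± 0.131) and was listed at 0 in both ferret libraries. For neither receptor did the species overlap. The fitted log2 difference was -3.62 for C5ar1 (SE 0.115, 95% interval -3.88 to -3.36, adjusted p = 1.29e-09, limma). For C3ar1 it was -3.44 (SE 0.075, 95% interval -3.61 to -3.27, adjusted p = 1.27e-10, limma). Because of the ferret values at 0 these differences depend on the pseudocount, and no ratio is given. With a pseudocount of 0.1 the value of C3ar1 was -6.64.

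The balance among the 7 genes also differed between the species. Added together, their levels came to 10.6 and 10.2 FPKM for ferret, against 429 and 421 FPKM for mouse. Serping1, the inhibitor, made up 77.7% and 81.3% of that sum in ferret and 12.0% and 12.3% in mouse. C1qb and C1qc together made up 16.6% and 13.8% in ferret and 61.8% and 62.4% in mouse, and C3 0.678% and 0.455% in ferret and 14.3% and 14.1% in mouse. Serping1 was thus 115 and 178 times the level of C3 in ferret, against 0.837 and 0.868 times in mouse. The ferret ratio is uncertain because it divides by C3 values close to 0, 0.0717 and 0.0462 FPKM. These shares are ratios within a library and do not depend on how libraries are scaled to each other, though they do depend on the gene models of each species.

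Over all 10204 genes the median log2 difference was -0.35, so the complement genes were read against a centre that was itself below 0. Relative to that median, C1qb was at -5.91 and Serping1 at -2.16. When the shared symbols of each library were rescaled to add up to 1000000, the median of all genes moved to -0.01, and under quantile normalization to 0.06. The share of all calls that were higher in ferret was 30.3% as deposited, 46.4% after the rescaling to 1000000, 46.9% after rescaling to the mean library sum and 50.8% after quantile normalization. The 7 complement genes were called lower under each of these scalings. C1qb ranged from -7.48 to -5.82 and Serping1 from -2.63 to -2.11 over all settings tried.

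**Figure D2:**
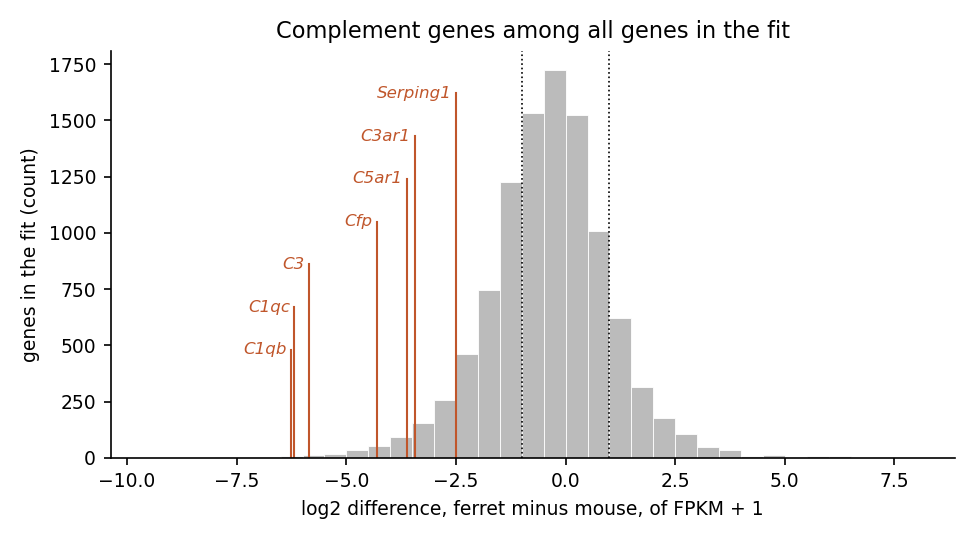
Number of genes in each bin of log2 difference, ferret minus mouse, of FPKM + 1, for the 10204 genes in the fit, with dotted lines at the limits of -1 and 1 used for a call. Vertical lines mark the 7 complement genes, and their heights carry no value. C1qb, C1qc and C3 lie in the far left tail and Serping1, at -2.51, nearest the centre.

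**Figure D3:**
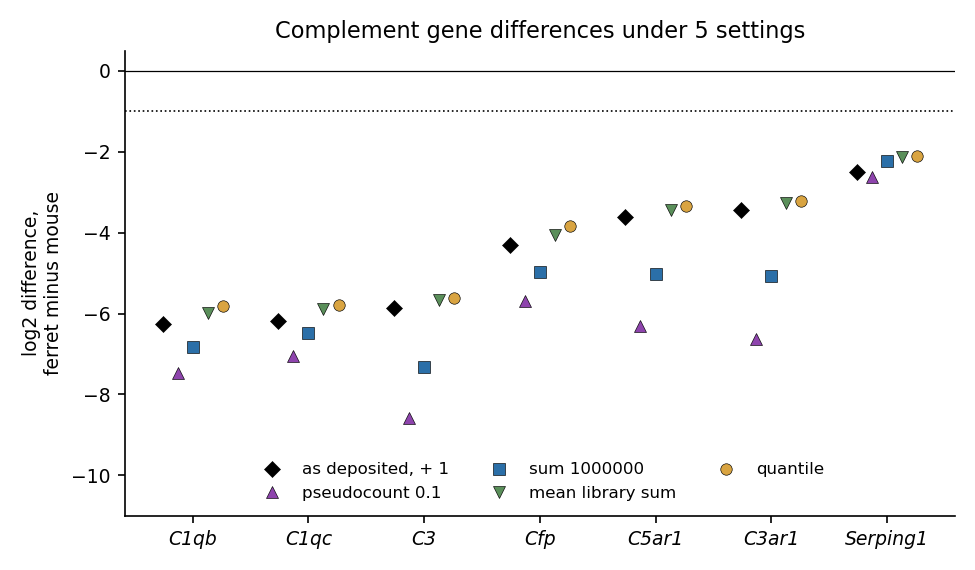
Log2 difference, ferret minus mouse, of the 7 complement genes under 5 settings, with a dotted line at the limit of -1 used for a call. Every marker lies below that line, and the pseudocount of 0.1 moves the genes with ferret values near 0 the most, C3 to -8.58.

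Microglial marker genes were also lower in the ferret libraries than in the mouse libraries. Microglia are phagocytes that astrocyte cultures often retain, and of 19 microglial marker genes 17 had values in both species. All 17 were lower in both ferret libraries than in both mouse libraries, against 59% of all genes, 16 were called lower, against 30.1%, 0 were called higher, also at an unadjusted p under 0.05 in limma, and the median log2 difference was -4.39, against -4.29 for the complement genes and -0.35 for all genes. Of the 17, 14 entered the fit only through their mouse level and so had to be lower in ferret, and Tmem119, Cd68 and Fcer1g were the 3 that reached the minimum in ferret as well. The count is therefore no support for a difference of the markers as a group. Summed, the markers reached 11.8 and 10.6 FPKM in ferret and 720 and 698 FPKM in mouse.

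Several defining microglial genes were at or near 0 in ferret. Cx3cr1, the fractalkine receptor, was listed at 0 in both ferret libraries and was at 15.0 and 16.5 FPKM in mouse, and Ly86 was also listed at 0 in ferret. P2ry12, a purinergic receptor, was at 0.0343 FPKM in 1 ferret library and listed at 0 in the other, against 2.26 and 2.30 FPKM in mouse. Aif1, which encodes Iba1, was at 0.0495 and 0.0465 FPKM in ferret and at 12.6 and 10.6 FPKM in mouse. No marker of the 17 was at 0 in a mouse library.

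Markers with large differences included a signalling adaptor and a lysosomal protease. Tyrobp, the adaptor of Trem2, was at 0.868 and 0.509 FPKM in ferret and 148.8 and 142.3 FPKM in mouse (log2 difference -6.45). Ctss, a lysosomal protease gene, was at 0.529 and 0.834 FPKM in ferret and 112.0 and 99.8 FPKM in mouse (-5.99). Tmem119 was less far apart, at 4.01 and 3.67 FPKM in ferret and 13.3 and 12.5 FPKM in mouse (-1.52). Gpr34 (-0.94) was not called. Tyrobp and Ctss were also in the paper's list of top mouse genes not found in ferret.

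Relative to the summed microglial markers, C1qb and C1qc together came to 14.8% and 13.2% for ferret, against 36.8% and 37.7% for mouse. The sums have an unlike make-up, so these shares do not compare C1q with the same base. Tmem119 and Cd68 were at 4.01 and 2.49 FPKM of a sum of 11.8 FPKM in ferret replicate 1. In mouse replicate 1 they were at 13.3 and 73.7 FPKM of 720 FPKM. The summed level of these markers, like that of the complement genes, was lower in both ferret libraries, and its part in the result was not tested. By immunostaining of cultures kept in serum, the paper counted a smaller share of microglia in ferret than in mouse. Those shares of cells lay much closer together than the RNA levels of these markers. The paper also counted a few neurons in the ferret cultures and named none in the mouse cultures. Of 9 meningeal fibroblast markers 8 were called lower, 4 of them having entered the fit only through mouse, with sums of 126 and 112 FPKM in ferret against 1561 and 1537 FPKM in mouse, and their part was not tested either. Astrocyte markers were called lower for 7 of 11 and higher for 1, with a median log2 difference of -1.79. Among those called lower, Slc1a2 entered the fit only through mouse. Oligodendrocyte lineage markers were called higher for 3 of 7 and lower for 0. Neuronal markers were called higher for 3 of 4 and lower for 0. Of 8 endothelial and mural markers with a row in both species, 3 were tested and all of these were called lower. Cdh5 and Tek had entered the fit only through mouse. The others were under the minimum in both species. Among them Cldn5 was listed at 0 in both mouse libraries and Pecam1 was at 0.0407 and 0.0312 FPKM in mouse. The counts of called markers stand against 30.1% of all genes called lower and 13.1% higher. The neuronal sums were 30.8 and 31.6 FPKM in ferret and 32.0 and 33.3 FPKM in mouse. Oligodendrocyte lineage sums were 166 and 185 FPKM in ferret and 67.4 and 67.7 FPKM in mouse. Map2, Olig2 and Cspg4 were lower in ferret but not called. Olig1 and Stmn2, at mouse means of 112 and 125 FPKM, had no ferret row.

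**Figure D4:**
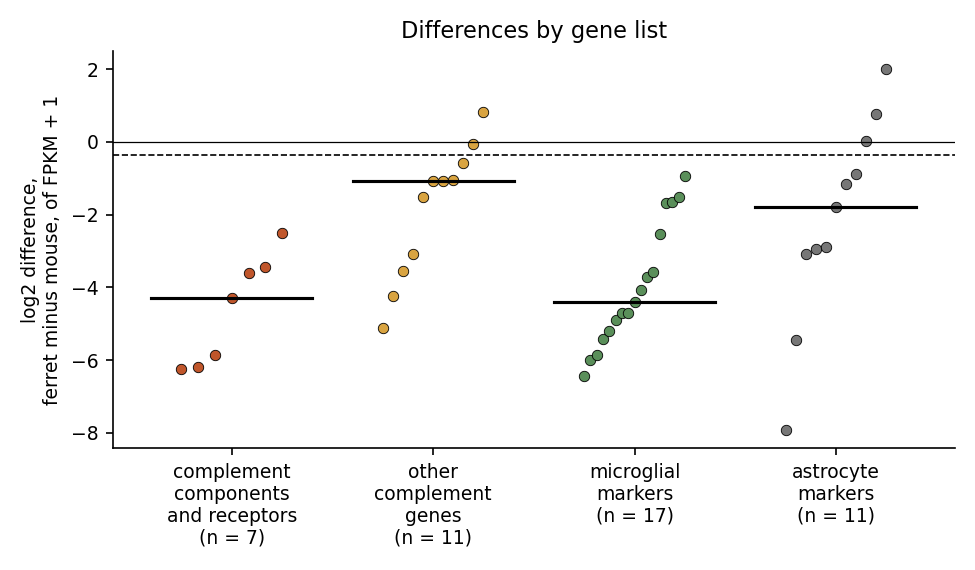
Log2 difference, ferret minus mouse, of FPKM + 1 for each gene of 4 lists, with a bar at the median of each list and a dashed line at the median of all genes, -0.35. The medians are -4.29 for the 7 complement genes, -1.08 for 11 other complement genes, -4.39 for 17 microglial markers and -1.79 for 11 astrocyte markers.

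The rest of the complement system gave fewer comparisons. Of 56 further genes listed for its pathways, 24 had a row in both species, 23 in mouse alone, 3 in ferret alone and 6 in neither. Of the 24 shared genes, 13 were under the minimum in both species and 11 were tested. Of these 8 were called lower in ferret and 0 higher in limma, with 1 higher at an unadjusted p under 0.05, against 30.1% of all genes called lower and 13.1% called higher, and the median log2 difference was -1.08. Colec12 was the only one of the 8 to reach the minimum in ferret, and the other 7 entered the fit only through their mouse level, so this count too is no support for a difference of the group. Masp2, C8g and Csmd1 were close to the limit and lost their call after rescaling to the mean library sum and after quantile normalization.

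Among the genes that start complement, Masp1, a protease of the lectin pathway, differed the most. It was at 34.4 and 35.1 FPKM in mouse and at 0.0207 and 0.0242 FPKM in ferret (log2 difference -5.13, adjusted p = 1.35e-11, limma). Colec12, a scavenger receptor of the collectin family, was at 66.6 and 67.3 FPKM in mouse and 5.03 and 4.57 FPKM in ferret (-3.55, adjusted p = 5.63e-11). Neither gene overlapped between the species. Masp2, the lectin pathway protease that cleaves C4 and C2, was at 2.65 and 2.55 FPKM in mouse and 0.803 and 0.665 FPKM in ferret (-1.05).

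C1r and C1s, the proteases bound to C1q, carry different symbols in the mouse, where they are duplicated, and were compared by level with no test. Ferret C1R was at 3.89 and 3.11 FPKM and mouse C1ra at 7.19 and 7.48 FPKM, while ferret C1S was at 2.86 and 3.01 FPKM and mouse C1s1 at 8.20 and 9.08 FPKM. The mouse values are uncertain because the near-identical copies could share fragments. These genes thus had measurable levels in both species. C1rl, named because it completes the count of genes not called, had a log2 difference of -0.57.

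The terminal pathway was low in both species. C8g, the gamma subunit of C8, was at 1.64 and 1.43 FPKM in mouse and 0.212 and 0.191 FPKM in ferret (log2 difference -1.08), and was the only tested gene of this pathway. C5, the source of the ligand of C5ar1, was at 0.0890 and 0.0803 FPKM in ferret, and its mouse counterpart Hc at 2.76 and 2.34 FPKM.

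Among the regulators, Clu, which encodes clusterin, a secreted chaperone that binds the terminal complex, was at 460 and 492 FPKM in mouse and 443 and 465 FPKM in ferret. The species overlapped, and the log2 difference was -0.07 (95% interval -0.21 to 0.08, adjusted p = 0.341, limma), with the sign reversed under each of the 3 rescalings. Csmd1, a membrane regulator, was at 1.81 and 1.90 FPKM in mouse and 0.354 and 0.350 FPKM in ferret (-1.08). Several regulators with substantial mouse levels had no ferret row, among them Cd59a, which blocks the terminal complex, at 68.8 and 72.6 FPKM, and Cr1l, a membrane regulator of C3 cleavage, at 31.8 and 31.6 FPKM. C4b, the mouse C4 gene that acts beside C2, was at 19.6 and 18.8 FPKM, also without a ferret row.

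Of the other receptors, Itgb2 and Itgam, whose products pair as complement receptor 3, followed C3ar1 and C5ar1. Itgb2 was at 20.7 and 20.0 FPKM in mouse and 0.137 and 0.128 FPKM in ferret (log2 difference -4.23, adjusted p = 4.04e-11, limma). Itgam was at 7.66 and 7.39 FPKM in mouse, listed at 0 in 1 ferret library and at 0.00748 FPKM in the other (-3.09, adjusted p = 2.57e-10). Cd93, once described as a C1q receptor, was at 2.04 and 1.79 FPKM in mouse and 0.0403 FPKM and 0 in ferret (-1.52).

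C1qbp, which encodes a largely mitochondrial protein that binds C1q, was the only tested complement gene with higher levels in both ferret libraries. It was at 112 and 129 FPKM in ferret and 66.4 and 68.6 FPKM in mouse. Its log2 difference of 0.82 (SE 0.073, adjusted p = 2.24e-06, limma) was under the limit for a call, and it was called higher under each of the 3 rescalings.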

How the data were processed

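The deposited files hold 1 FPKM value per gene and library, made by the authors from stranded, polyA-selected, paired-end reads. The authors aligned reads with STAR 2.7.0f to the Ensembl genome of each species and quantified genes with Cufflinks 2.2.1 (bcl2fastq 2.17 is also named in the submitters' processing notes). FPKM divides by gene-model length, so a truncated ferret model can move a value, and the lengths and read counts that the study lists in its supplement were not used here. Values are not counts, and no count test was run. No deposited column was left out.

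Genes were matched by symbol, and where a symbol had several rows the highest species mean was kept. Differences were fitted with limma 3.58.1 (R 4.3.3) on log2(FPKM + 1), which understates the change of low genes, in genes whose mean reached 1 FPKM in a species, without a replicate term. Benjamini-Hochberg adjustment covered 10204 genes. Calls needed an adjusted p under 0.05 and a log2 difference beyond 1. The fit was tested on simulated data. Tables and plots were made with Python 3.11.15, pandas 2.3.3, numpy 2.4.6 and matplotlib 3.10.9.

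All 10 genes are named, with those of the other complement lists that were called or reached a mean of 10 FPKM in a species. The genes and lists were chosen with earlier results of these data known. A few genes of these lists are not reported here. Alternatives were a pseudocount of 0.1, no filter, 3 rescalings, summed rows, a replicate term and leaving out each library. Mouse positions and coding sequences come from GENCODE vM21 on GRCm38.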

Additional observations from a re-analysis of the deposited data

How the results depend on the processing

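The 7 complement genes were called lower in ferret under each alternative tried (a pseudocount of 0.1, all shared genes kept, 3 rescalings, summed rows, the replicate block and leaving out each library). Scaling between the species mattered for other genes. Of the other complement genes, 8 were called lower as deposited, 5 after rescaling to the mean library sum and 5 after quantile normalization. Called higher were 0 as deposited and 1, C1qbp, under each of the 3 rescalings. Clu changed sign, to 0.32 when rescaled to 1000000, 0.32 with the mean library sum and 0.16 after quantile normalization. Over all genes, 3069 were called lower as deposited and 2040 after quantile normalization, and 1336 were called higher as deposited, 2197 after rescaling to 1000000 and 2107 after quantile normalization. Rescaling moves the centre of all genes by construction. Leaving out each library in turn gave 7 of the 7 genes and 7 to 8 of the other complement genes, Masp2 losing its call without ferret replicate 2 (log2 difference -0.997). With the replicate block, 7 and 8 genes were called, 3072 of all genes were lower and 1342 higher, and no call of a named gene changed. The deviations of same-numbered libraries correlated at 0.00995 over 10204 genes. With a single pair of duplicates per species, this value cannot show whether same-numbered libraries were handled together. The values used here hold no counts, so no depth limit is given for ferret levels near 0.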

Other observations

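C1q gives its name to a wider family of secreted proteins that carry its globular domain without being part of complement, the C1q-like and C1q/TNF-related proteins. These genes were looked at after the values were seen, by their symbols (C1ql or C1qtnf with a number), and were given no test. Of 11 with a row in both species, 7 had a mean of at least 1 FPKM in a species. Both mouse libraries were above both ferret libraries for 6 of the 7, and the opposite held for 1, against 59% and 35.1% of all genes in the fit. C1ql3 and C1qtnf12 reached the minimum through their mouse level alone and so had to be lower in ferret.

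C1ql1, a secreted ligand known from synapses, was the gene that was higher in ferret, at 123.7 and 111.7 FPKM against 40.8 and 45.6 FPKM in mouse. Its relative C1ql3 lay the other way, at 0.0480 and 0.169 FPKM in ferret and 31.8 and 34.9 FPKM in mouse. C1qtnf5 had the highest mouse level of the 7, at 116.3 and 124.2 FPKM against 5.28 and 6.04 FPKM in ferret. C1qtnf1 was at 39.2 and 41.1 FPKM in mouse and at 1.08 and 1.39 FPKM in ferret. The remaining 3, C1qtnf12, C1qtnf2 and C1qtnf6, had mouse means of 8.16, 3.79 and 12.3 FPKM and ferret means of 0.201, 1.79 and 1.08 FPKM.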
